A study of Mus musculus with 6 samples.

Results

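The SR and hnRNP splicing factors described here are the protein coding mouse genes whose symbols start with Hnrnp, or are Srsf followed by a number, Ptbp1 to Ptbp3, Tra2a, Tra2b, Nova1 or Nova2. Read by symbol from the deposited table, they number 38 of 32285 genes. They divide into 13 SR genes (11 Srsf and 2 Tra2 genes), 20 hnRNP genes, and 5 genes of the PTBP and NOVA families. Their transcripts were measured by bulk RNA sequencing in wild-type mouse neocortex at embryonic stage E10.5. Dissociated cells were cultured for about 2 h, and then for about 24 h with GSK2837808A, an inhibitor of lactate dehydrogenase (the GSK group, 3 libraries), or with the same volume of its solvent DMSO (the DMSO group, 3 libraries). The labels give the inhibitor as 100 mM, a concentration too high to be plausible in a culture, so the dose reached is uncertain. About 1000 living cells carrying the surface protein CD133 were sorted per library and amplified with Smart-seq2, which copies polyadenylated RNA. The labels call these cells radial glial progenitors, the dividing stem cells of the embryonic cortex. Whether the replicates are separate cultures or embryos is not stated, so p-values here speak only of the spread between these 6 libraries, which may be technical.

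SR proteins carry RNA-binding domains and a tail rich in arginine and serine. They bind exonic enhancers and recruit the U1 and U2 particles to nearby splice sites, and their action depends on phosphorylation by the SRPK and CLK kinases. hnRNP proteins coat nascent transcripts and in many settings hold splice sites silent, so the balance of both families bears on which exons are kept. In the developing cortex PTBP1 is known to repress neuronal exons in progenitors, PTBP2 takes its place in young neurons, and the NOVA proteins drive exons of neuronal transcripts.

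The GSK libraries held 7187089 to 10224348 reads and the DMSO libraries 7837721 to 10051625. All values below are normalised read counts as deposited, unless another scale is named. Radial glial markers were present, but their summed level was 10662 to 13151 in GSK and 20078 to 20646 in DMSO libraries, and 8 of 9 were lower. Of 5 intermediate progenitor markers 4 were higher (sum 1564 to 2270 in GSK, 811 to 1057 in DMSO). Neuron markers were higher for 10 of 15 and lower for 1, with sums of 24624 to 30686 in GSK and 8357 to 16402 in DMSO libraries. Red cell genes, mostly globins, summed to 186922 to 277396 in GSK and 2461 to 21016 in DMSO libraries, with 8 of 9 tested genes of the 10 listed higher. Microglia markers summed to 604 to 1319 in GSK and 98.8 to 395 in DMSO libraries, with 6 of 10 higher. Of 6 mesenchyme markers 2 were lower, and the sums were 13102 to 21424 in GSK and 22217 to 28044 in DMSO libraries. None of 3 endothelial markers tested, of 6 listed, was called (sum 44.6 to 67.1 in GSK, 46.7 to 78.1 in DMSO). No marker was at 0 in every library. The part these cells had in the results below was not tested, and in bulk samples fewer cells of a type and less RNA per cell cannot be told apart.

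Transcripts of the splicing factors were more often lower than higher in GSK libraries. All 38 passed the filter of a mean of at least 10 normalised reads, 20 fell, 3 rose (Nova2, Ptbp3 and Hnrnpul2), and 15 were not called (limma on log2(value + 1), Benjamini-Hochberg adjusted p below 0.05 over all 15073 genes tested). Among all genes tested 19.1% were called lower and 17.0% higher, and among the 9569 genes averaging 100 or more these shares were 23.1% and 17.6%. The members' share called lower was 52.6%, and their share called higher was 7.89%. Their median log2 fold change was -0.38, beside 0.01 over all genes tested. The 3 GSK values lay below the 3 DMSO values for 25 members and above them for 3, where 24.4% and 22.8% of all genes tested did so. The test called 36.1% of all genes in either direction. edgeR on the recovered reads called 36.5%, and of the members it called 22 lower and 2 higher. With library totals equalised after leaving out globin, mitochondrial and 3 rRNA-overlapping genes (the globin-free total, a setting chosen after seeing the data), 19 members were lower and 4 higher. With that total 2555 of all 15073 genes tested were lower and 2940 higher. Every fold change below is a difference of log2(value + 1), which understates changes of low genes.

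**Figure D1:**
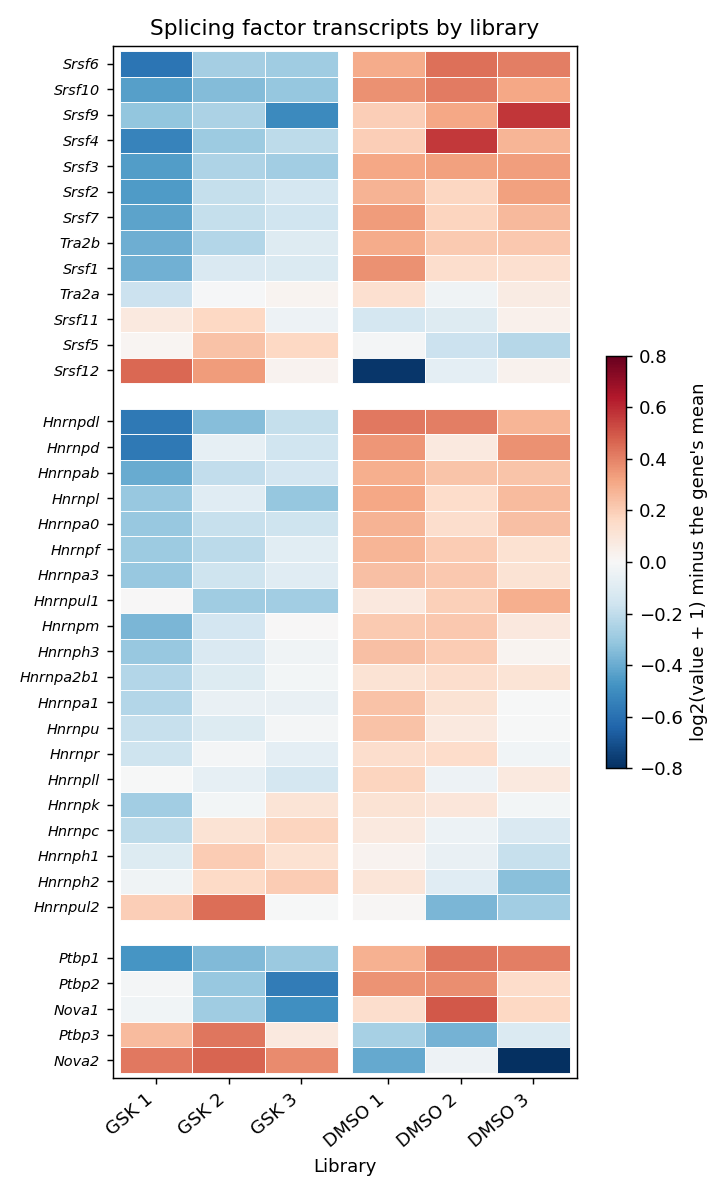
Log2(value + 1) of each of the 38 splicing factor genes in each library, relative to the gene's mean over the 6 libraries (columns: GSK replicates left, DMSO replicates right; rows: genes by family; values beyond the ends of the colour scale take its end colours). Most SR rows are below their mean in the 3 GSK columns, whereas Nova2 and Ptbp3 are above it there.

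As a share of all reads in a library, the 38 genes took 1.03, 1.02 and 1.06% in GSK libraries and 1.39, 1.31 and 1.26% in DMSO libraries. The ranges did not overlap (1.04% ± 0.0220 in GSK and 1.32% ± 0.0632 in DMSO, SD, n = 3 each; two-sided exact permutation test, p = 0.1, below which 3 against 3 cannot go). The SR genes took 0.244% ± 0.00124 in GSK and 0.340% ± 0.00870 in DMSO libraries (SD, n = 3 each). The hnRNP genes took 0.739% ± 0.0243 in GSK and 0.903% ± 0.0552 in DMSO libraries (SD, n = 3 each). These shares depend on the total, which includes the globin genes. Of a total without globin, mitochondrial and rRNA-overlapping genes, all 38 genes took 1.44% ± 0.0243 in GSK and 1.69% ± 0.0684 in DMSO libraries (SD, n = 3 each).

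The libraries of a group did not contribute evenly. GSK replicate 1 gave the lowest of the 3 GSK values for 27 of the 38 genes, and DMSO replicate 1 the highest of the 3 DMSO values for 20. Without GSK replicate 1, 20 members were called lower and 5 higher, and without GSK replicate 2, 1 was called higher. Of all 15073 genes tested, 3227 were lower and 3071 higher without GSK replicate 1, and 1748 were higher without GSK replicate 2. The main fit called 2883 lower and 2563 higher. A fit without variance trend and robust prior ended the calls of Srsf1, Hnrnpd, Hnrnpf, Hnrnpa3, Hnrnpul1, Hnrnpul2 and Nova1, with adjusted p between 0.0534 for Hnrnpf and 0.104 for Hnrnpul2.

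Among the SR genes 9 of 13 fell (69.2%) and none rose, beside 19.1% lower and 17.0% higher over all genes tested. Their median log2 fold change was -0.52. The exceptions were Srsf5, Srsf11, Srsf12 and Tra2a, which did not pass the test.

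Srsf6, an SR protein that acts on exons of tau and other neuronal transcripts, showed the lowest log2 fold change of the family. It had 1833, 2277 and 2258 normalised reads in GSK libraries, against 3381, 3729 and 3657 in DMSO libraries. Every GSK value lay well under every DMSO value (log2 fold change -0.76, standard error 0.14, limma adjusted p = 0.000194). The gene lies on chromosome 2 from 162931528 to 162937121 (GRCm38, as are all positions here).

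Srsf3, the smallest member of the SR family and the most abundant Srsf transcript per kilobase of exon in DMSO libraries, had 4219, 4856 and 4743 normalised reads in GSK libraries, against 7148, 7237 and 7252 in DMSO libraries. The DMSO values were nearly equal, and the GSK values all lay below them (log2 fold change -0.65, standard error 0.14, limma adjusted p = 0.000999; chromosome 17, 29032628 to 29043373). Srsf7, its close relative, which like Srsf3 takes part in messenger RNA export, had 1928, 2279 and 2325 in GSK and 3290, 2939 and 3102 in DMSO libraries. The groups were again apart, with a log2 fold change of -0.52 (limma adjusted p = 0.00481).

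Srsf10, known as a splicing repressor when it loses its phosphates, had 1472, 1571 and 1609 normalised reads in GSK libraries and 2578, 2668 and 2478 in DMSO libraries. The spread within each group was small beside the gap between them (log2 fold change -0.73, standard error 0.13, limma adjusted p = 0.000129). Srsf4, one of the larger SR proteins, had 592, 702 and 742 in GSK and 982, 1271 and 1037 in DMSO libraries, a log2 fold change of -0.69 (limma adjusted p = 0.000549). Srsf9, at a lower level, had 118, 123.1 and 103 in GSK and 169, 183 and 219 in DMSO libraries, a log2 fold change of -0.72 (limma adjusted p = 0.00206). Neither gene's groups overlapped.

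Srsf1 and Srsf2, the founding members known as ASF/SF2 and SC35, fell as well. Srsf2 had 484, 581 and 601 normalised reads in GSK libraries and 804, 744 and 831 in DMSO libraries (log2 fold change -0.52, limma adjusted p = 0.0038). Srsf1 had 603, 723 and 727 in GSK and 1016, 868 and 861 in DMSO libraries (log2 fold change -0.42, limma adjusted p = 0.0164). DMSO replicate 1 was the highest Srsf1 value, and without it the call was lost (adjusted p = 0.101, within a range of 0.00436 to 0.101 over 18 other settings).

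Srsf5 differed from the members that fell. It had 3534, 4117 and 3933 normalised reads in GSK libraries, against 3470, 3106 and 2983 in DMSO libraries. The GSK values lay just above the DMSO values, and the gene was not called (log2 fold change 0.28, standard error 0.14, limma adjusted p = 0.12). A call as higher came without GSK replicate 1 (adjusted p = 0.00821), with cyclic loess scaling (0.00996) and with the total free of globin, mitochondrial and rRNA-overlapping genes (0.0256), in a range of 0.00821 to 0.362 over the 18 other settings. Srsf11 had 2002, 2123 and 1842 in GSK and 1719, 1761 and 1952 in DMSO libraries, which overlap (log2 fold change 0.13, limma adjusted p = 0.441). Srsf12 was among the lowest members, with 48.9, 45.0 and 36.1 in GSK and 20.2, 33.5 and 36.2 in DMSO libraries. Its log2 fold change of 0.55 had a standard error of 0.28 and did not pass (limma adjusted p = 0.14).

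The paralogs Tra2a and Tra2b encode enhancer-binding factors related to fly transformer-2. Tra2b had 1946, 2166 and 2366 normalised reads in GSK libraries and 3133, 2951 and 2961 in DMSO libraries, without overlap (log2 fold change -0.49, limma adjusted p = 0.00695). Tra2a had 1166, 1311 and 1335 in GSK and 1438, 1288 and 1379 in DMSO libraries, which overlap (log2 fold change -0.11, standard error 0.13, limma adjusted p = 0.533).

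**Figure D2:**
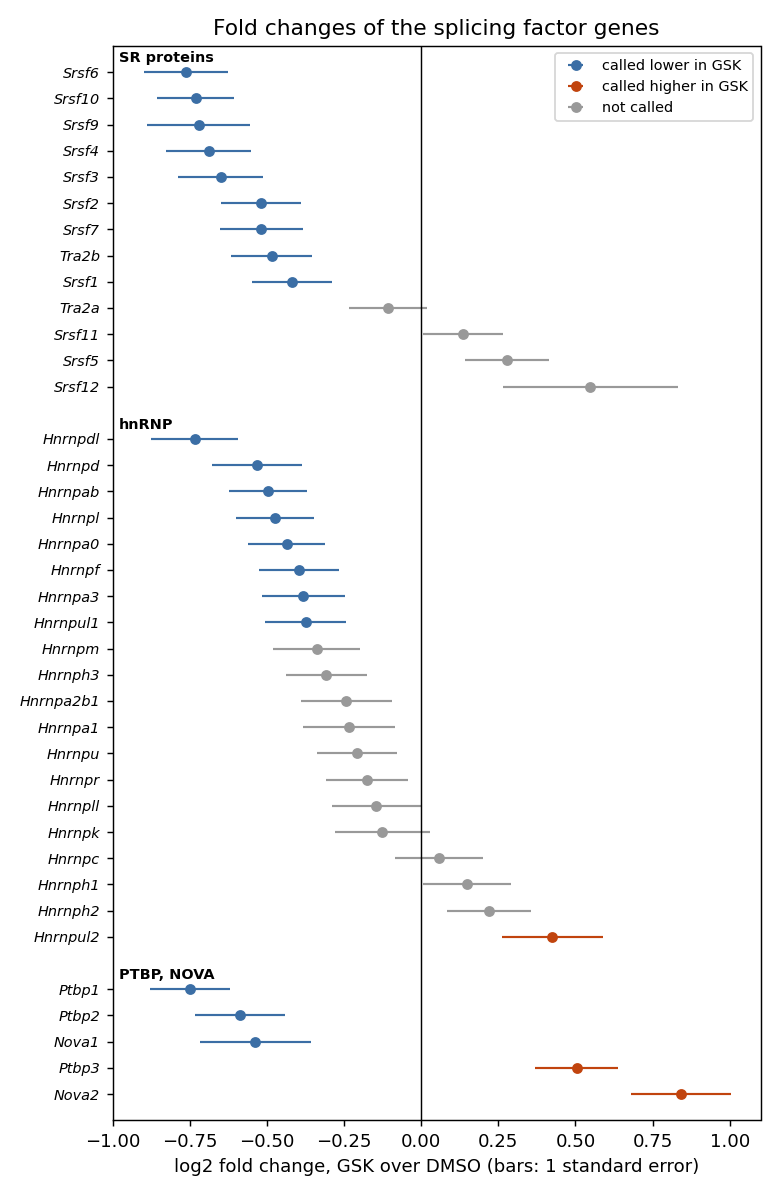
Log2 fold change of each splicing factor gene, GSK over DMSO, with 1 standard error (x axis; rows: genes by family; blue: called lower, red: called higher, grey: not called). The SR genes called lower run from -0.76 for Srsf6 to -0.42 for Srsf1, and Nova2 at 0.84 is the farthest to the right.

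Of the 20 hnRNP genes 8 fell, Hnrnpul2 rose, and 11 were not called, with a median log2 fold change of -0.28. The count of 8 became 5 without DMSO replicate 2 or without GSK replicate 2, and 10 with edgeR or DESeq2 on the recovered reads. In these settings, in the same order, 14.9%, 15.5%, 19.9% and 18.1% of all genes tested were called lower. For 13 of the 20 every GSK value was below every DMSO value, and for none were they all above. Over all genes tested these shares were 24.4% and 22.8%.

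The D family, whose proteins bind AU-rich elements as well as splicing signals, held the leading changes. Hnrnpdl had 2308, 2712 and 3004 normalised reads in GSK libraries, against 4595, 4555 and 4134 in DMSO libraries. The groups were far apart (log2 fold change -0.73, standard error 0.14, limma adjusted p = 0.000375; chromosome 5, 100033577 to 100039664). Its neighbour on the chromosome Hnrnpd, which encodes AUF1 (99955935 to 99978938), had 390, 554 and 521 in GSK and 744, 614 and 749 in DMSO libraries (log2 fold change -0.53, limma adjusted p = 0.00723). Hnrnpab, a relative of both, had 883, 1019 and 1052 in GSK and 1424, 1367 and 1366 in DMSO libraries, with no overlap (log2 fold change -0.50, limma adjusted p = 0.00389).

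The A and B group includes the most abundant members. Hnrnpa1, whose protein is a widely acting silencer of exons, had 10979, 12396 and 12391 normalised reads in GSK libraries and 15212, 14012 and 12869 in DMSO libraries. The GSK values lay below the DMSO values by a margin that missed the threshold (log2 fold change -0.23, standard error 0.15, limma adjusted p = 0.238). Hnrnpa2b1, which also takes part in RNA transport, had 10289, 11244 and 11928 in GSK and 13099, 13345 and 13070 in DMSO libraries (log2 fold change -0.24, limma adjusted p = 0.209). Both were called lower with equal library totals (adjusted p = 0.0375 for Hnrnpa1, range 0.0375 to 0.527 over the 18 other settings, and 0.0241 for Hnrnpa2b1, range 0.0241 to 0.409).

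Hnrnpa0 and Hnrnpa3, less abundant relatives, passed the test. Hnrnpa0 had 447, 487 and 492 normalised reads in GSK and 669, 609 and 652 in DMSO libraries (log2 fold change -0.44, limma adjusted p = 0.01). Hnrnpa3 had 2800, 3080 and 3230 in GSK and 4082, 4025 and 3753 in DMSO libraries (log2 fold change -0.38, limma adjusted p = 0.0306). Neither pair of ranges overlapped, but the Hnrnpa3 call was lost without DMSO replicate 1, 2 or 3 (adjusted p = 0.116, 0.12 and 0.0548) and without GSK replicate 2 (0.101), in a range of 0.00269 to 0.12 over the 18 other settings.

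Hnrnpl, which binds CA repeats, had 748, 864 and 745 normalised reads in GSK libraries and 1145, 1024 and 1100 in DMSO libraries (log2 fold change -0.47, limma adjusted p = 0.00562). Its paralog Hnrnpll did not pass, with 238, 226 and 215 in GSK and 270, 231 and 252 in DMSO libraries (log2 fold change -0.15, limma adjusted p = 0.457). The Hnrnpl groups were apart and the Hnrnpll ranges overlapped.

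The H and F proteins bind runs of G. Hnrnpf had 1927, 2031 and 2210 normalised reads in GSK libraries and 2840, 2708 and 2566 in DMSO libraries, apart from each other (log2 fold change -0.40, limma adjusted p = 0.0215). Its call was lost on leaving out DMSO replicate 1 (adjusted p = 0.0985), GSK replicate 2 (0.094) or DMSO replicate 2 (0.0823), in a range of 0.0024 to 0.0985 over the 18 other settings. Hnrnph1 had 4719, 5854 and 5542 in GSK and 5176, 4871 and 4463 in DMSO libraries, which overlap (log2 fold change 0.15, limma adjusted p = 0.446). Hnrnph2 was alike in direction and did not pass (log2 fold change 0.22, limma adjusted p = 0.22), being called higher without GSK replicate 1 (0.0434) and with cyclic loess (0.047), in a range of 0.0434 to 0.629. Hnrnph3, at a log2 fold change of -0.31, was not called (limma adjusted p = 0.0723). It became lower by the test without GSK replicate 3 (0.0442), with equal library totals (0.0132), edgeR (0.043) and DESeq2 (0.0368), in a range of 0.0132 to 0.224.

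The U group encodes large nuclear scaffold proteins. Hnrnpul1 had 613, 503 and 506 normalised reads in GSK libraries and 649, 699 and 749 in DMSO libraries (log2 fold change -0.37, limma adjusted p = 0.0311). Hnrnpul2 had 236, 280 and 205 in GSK and 207, 159 and 169 in DMSO libraries (log2 fold change 0.42, limma adjusted p = 0.0483). The Hnrnpul2 groups overlapped, since the lowest GSK value was under the highest DMSO value. Hnrnpul1 lost its call without DMSO replicate 2 or 3 (adjusted p = 0.0941 and 0.119) and without GSK replicate 2 or 3 (0.153 and 0.0757). It was also lost with cyclic loess (0.0806), with no filter on low values (0.0595) and with the globin-free total (0.0728), in a range of 0.00177 to 0.153 over the 18 other settings. Hnrnpul2 lost its call without DMSO replicate 2 or 3 (0.187 and 0.125) and without GSK replicate 2 (0.254). It was lost too with edgeR (0.0522), DESeq2 (0.0584), equal library totals (0.116) and no filter (0.0755), in a range of 0.0194 to 0.254. Hnrnpu itself had 1744, 1837 and 1965 in GSK and 2336, 2100 and 1984 in DMSO libraries, narrowly apart and not called (log2 fold change -0.21, limma adjusted p = 0.221).

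Hnrnpk, which binds runs of C, had 9753, 11607 and 12752 normalised reads in GSK libraries and 12770, 12648 and 11618 in DMSO libraries. The ranges overlapped (log2 fold change -0.13, standard error 0.15, limma adjusted p = 0.554). Hnrnpc, which binds runs of U and masks exon-like intronic sequence, had 3100, 3880 and 4040 in GSK and 3777, 3468 and 3290 in DMSO libraries (log2 fold change 0.06, limma adjusted p = 0.786), and its sign turned with equal library totals (-0.01) and without GSK replicate 3 (-0.02). Hnrnpr was not called (log2 fold change -0.18, limma adjusted p = 0.319). Hnrnpm was not called either, with 2930, 3402 and 3779 in GSK and 4359, 4378 and 3992 in DMSO libraries (log2 fold change -0.34, limma adjusted p = 0.0653). It was called lower without GSK replicate 3 (0.0263), with edgeR (0.0389), DESeq2 (0.0204), cyclic loess (0.0309), equal library totals (0.00795) and the globin-free total (0.0425), in a range of 0.00795 to 0.205.

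All 5 PTBP and NOVA genes passed the test, as did 36.1% of all genes tested. Ptbp1, Ptbp2 and Nova1 fell, and Ptbp3 and Nova2 rose. Ptbp1, the progenitor repressor of neuronal exons (chromosome 10, 79854427 to 79864771), had 1766, 1917 and 1992 normalised reads in GSK libraries, against 2984, 3297 and 3251 in DMSO libraries. No GSK value came near the DMSO values (log2 fold change -0.75, standard error 0.13, limma adjusted p = 0.000139). Ptbp2, the neuronal paralog (chromosome 3, 119718742 to 119784466), had 1934, 1590 and 1325 in GSK and 2512, 2535 and 2167 in DMSO libraries. It was lower too, by a smaller and more variable amount (log2 fold change -0.59, standard error 0.15, limma adjusted p = 0.0036).

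The log2 ratio of Ptbp2 to Ptbp1 averaged -0.24 ± 0.36 in GSK and -0.40 ± 0.17 in DMSO libraries (SD, n = 3 each), and the groups overlapped (difference 0.16, two-sided exact permutation test, p = 0.7). GSK replicate 1 held the highest ratio, and without it the difference was -0.02. Ptbp3, a paralog known from blood cells as ROD1 (chromosome 4, 59471868 to 59549364), rose. It had 658, 741 and 583 normalised reads in GSK libraries and 459, 424 and 510 in DMSO libraries, all GSK values being higher (log2 fold change 0.50, standard error 0.14, limma adjusted p = 0.00614). Its call was lost without GSK replicate 2 (adjusted p = 0.0647, range 0.00181 to 0.0647 over the 18 other settings).

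Nova2 (chromosome 7, 18925888 to 18965319), the NOVA gene of the cortex, had the highest log2 fold change of the 38. It had 560, 575 and 542 normalised reads in GSK libraries, against 314, 406 and 236 in DMSO libraries. The GSK values were close together and all above the more scattered DMSO values (log2 fold change 0.84, standard error 0.16, limma adjusted p = 0.0004). Nova1 (chromosome 12, 46694517 to 46818929), known mainly from hindbrain and spinal cord, had 126, 106 and 91.3 in GSK and 142, 182 and 145 in DMSO libraries. It was lower without overlap (log2 fold change -0.54, standard error 0.18, limma adjusted p = 0.0237). The Nova1 call was lost without DMSO replicate 2 (adjusted p = 0.137), GSK replicate 2 (0.0678) or GSK replicate 3 (0.0935), and with the total free of globin, mitochondrial and rRNA-overlapping genes (0.0576), in a range of 0.00533 to 0.137 over the 18 other settings. Neuron markers were higher for 10 of 15 and lower for 1, as given above, while Ptbp2 and Nova1 fell. Any relation of these markers to Nova2 was not tested.

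**Figure D3:**
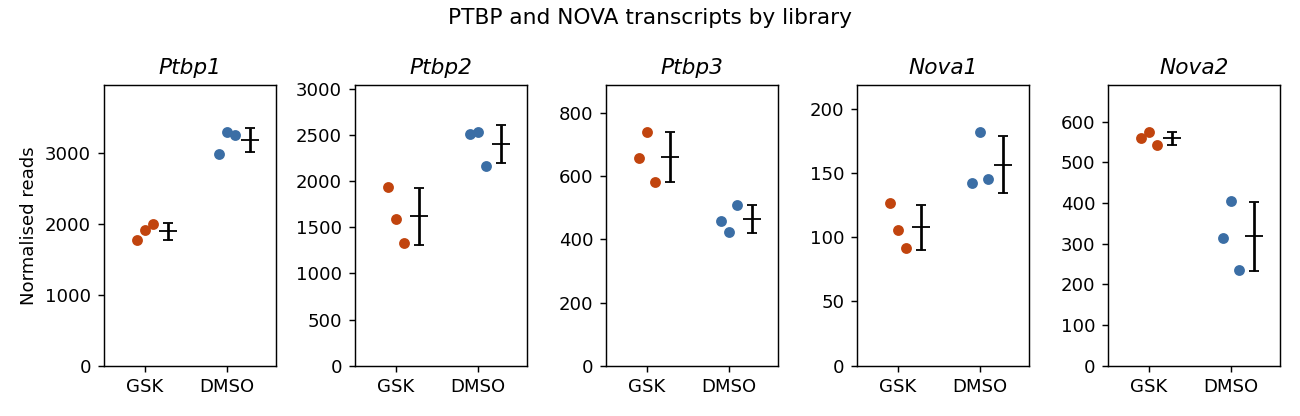
Normalised reads of Ptbp1, Ptbp2, Ptbp3, Nova1 and Nova2 in each library (points), with the group mean and SD (GSK left of DMSO in each panel, n = 3 each). The GSK and DMSO points are apart in every panel, lower in GSK for Ptbp1, Ptbp2 and Nova1 and higher in GSK for Ptbp3 and Nova2.

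Ratios within a library are given for 5 pairs of members and for both families, as a description with no test, since the pairs were chosen after their values were seen and had to diverge. The log2 ratio of Nova2 to Nova1 was 2.38 ± 0.21 in GSK and 1.00 ± 0.26 in DMSO libraries, a difference of 1.38. That of Ptbp3 to Ptbp1 was -1.52 ± 0.22 in GSK and -2.77 ± 0.16 in DMSO libraries, a difference of 1.25. Srsf6 over Srsf5 was -0.87 ± 0.07 in GSK and 0.17 ± 0.18 in DMSO libraries, so Srsf5 was the more counted of the pair in GSK libraries. Tra2b over Tra2a was 0.76 ± 0.06 in GSK and 1.14 ± 0.05 in DMSO libraries. Hnrnpf over Hnrnph1 was -1.38 ± 0.13 in GSK and -0.84 ± 0.03 in DMSO libraries. The summed SR genes over the summed hnRNP genes were at -1.59 ± 0.04 in GSK and -1.41 ± 0.06 in DMSO libraries (all SD, n = 3 each).

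Levels between genes can be set side by side per kilobase of annotated exon. On that scale Hnrnpa1 led with 6216 normalised reads per kilobase in GSK and 7316 in DMSO libraries, followed by Hnrnpa2b1 with 4582 in GSK and 5411 in DMSO and by Hnrnpk with 2769 in GSK and 3007 in DMSO. These 3 genes held 36.8 to 37.9% of all member reads in GSK libraries and 34.9 to 35.5% in DMSO libraries. Srsf3 stood at 1759 in GSK libraries, rank 6, and at 2755 in DMSO libraries, rank 4. Srsf5 had the opposite change of place, with 2332 and rank 4 in GSK and 1924 and rank 6 in DMSO libraries. The lowest levels per kilobase were those of Nova1 (15.1 in GSK, 21.9 in DMSO) and Srsf12 (14.7 in GSK, 10.2 in DMSO). These ranks are rough. The length joins the exons of a gene's annotated protein coding transcripts, whether or not the cells used them. It came to 21483 bases for Hnrnpr, rank 31 in DMSO libraries. Sequence shared with other genes, 46.7% of stretches in Hnrnpa1 as given below, makes some counts less certain.

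**Figure D4:**
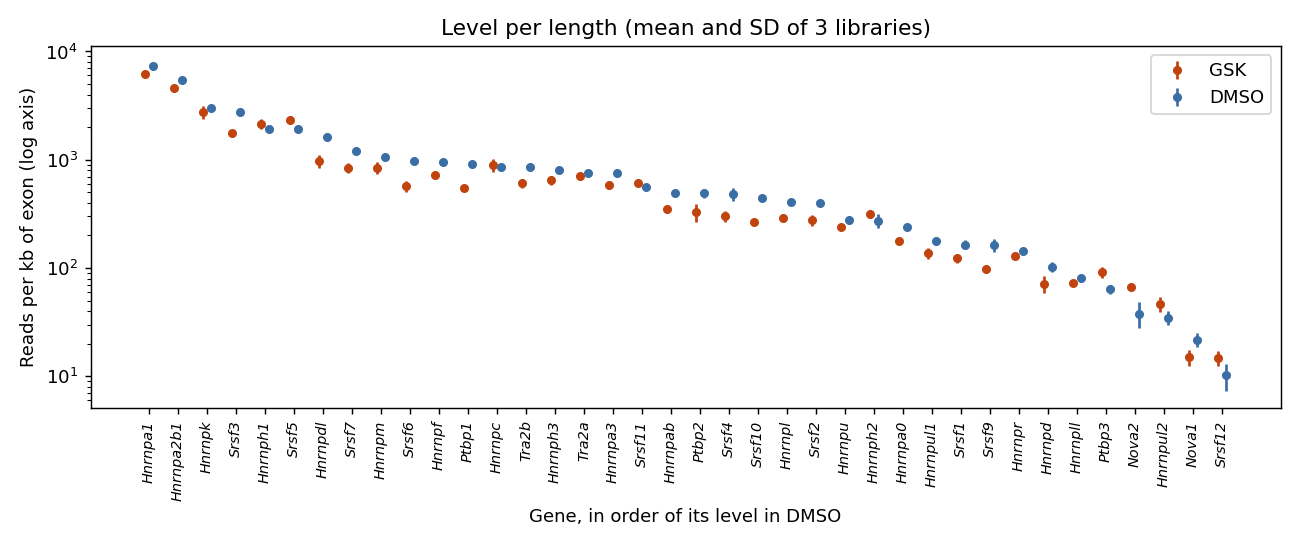
Mean level per kilobase of annotated exon of the 38 splicing factor genes in GSK and DMSO libraries (log axis; bars: SD, n = 3 each). Hnrnpa1, Hnrnpa2b1 and Hnrnpk are highest in both groups and Nova1 and Srsf12 lowest.

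Promoter sequence was read for the 35 members with an entry in the RefSeq table of GRCm38.p6 (47 windows of 250 bases before to 50 after a start; Hnrnpll, Hnrnpul2 and Ptbp3 have no entry). The E-box CACGTG, a palindrome that reads alike on both strands and is the letters bound by MYC family factors, was present in 12.8% of member windows, 7.15% of all windows and 9.53% of those of protein coding genes tested. It lay in windows of 6 genes, Hnrnpa3, Hnrnpd, Hnrnpf, Hnrnph2, Hnrnpm and Ptbp1, of which 4 were called lower, as were 20 of all 35 members with an entry, so these counts do not set the E-box genes apart. Stretches of 70 bases upstream of the start are shown for 3 of the 6, all called lower, to show where the motif lies, with the E-box in capitals.
Ptbp1, chr10:79854355-79854424, plus strand: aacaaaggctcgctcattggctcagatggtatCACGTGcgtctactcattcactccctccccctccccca
Hnrnpd, chr5:99978939-99979008, minus strand: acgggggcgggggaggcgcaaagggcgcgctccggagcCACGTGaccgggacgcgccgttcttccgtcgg
Hnrnpa3, chr2:75659189-75659258, plus strand: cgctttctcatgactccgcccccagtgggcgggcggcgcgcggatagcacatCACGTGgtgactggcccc

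These stretches begin their E-box 45 bases (Ptbp1), 32 bases (Hnrnpd) and 18 bases (Hnrnpa3) before the annotated start. The GC box GGGCGG, searched on both strands as were the motifs below, was in 83.0% of member windows and in 62.1% of those of protein coding genes tested. The NRF1 consensus was in 17.0% of member windows and 9.42% of protein coding ones, and the ETS letters CCGGAAGT in 12.8% and 7.56%. CCAAT was in 48.9% and 38.0%, TGACGTCA in 2.13% and 2.97%, and TATAAA in 8.51% and 7.11%. A NRF1 or GC box match can overlap other GC-rich motifs, and a match describes the letters only. Some members have several windows, and windows of Srsf4 and of Hnrnph1 overlap, so the same site can count more than once. The percentages are therefore shares of windows and not of genes.

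Other genes of the splicing pathway, taken from lists chosen with earlier results of these data known, were lower mainly in the core machinery. Of 24 genes of the U1 and U2 particles, the Sm ring and U2AF, 16 fell (66.7%, beside 19.1% of all genes tested) and none rose. Their median log2 fold change was -0.55. U2af1, which reads the AG of the acceptor site, averaged 825 ± 77.0 normalised reads in GSK and 1877 ± 125 in DMSO libraries (SD, n = 3 each; log2 fold change -1.19, limma adjusted p = 4.09e-07). Snrpa1 of the U2 particle, Sf3a2 of the SF3A complex and the Sm gene Snrpd1 had log2 fold changes of -1.03, -0.98 and -0.84. Of 24 genes of the tri-snRNP, LSm ring and Prp19 complex 15 fell (62.5%) and none rose (median -0.49). Lsm2, part of the ring on U6, averaged 420 ± 95.4 in GSK and 1049 ± 37.4 in DMSO libraries (log2 fold change -1.35, limma adjusted p = 7.42e-07, n = 3 each), and the ubiquitin ligase gene Prpf19, Lsm6 and the U5 GTPase gene Eftud2 had -1.22, -1.08 and -1.06. Without GSK replicate 1, 2 genes of the U1 and U2 list and 1 of the tri-snRNP list were called higher.

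Of 9 kinases of SR proteins 2 were lower and 2 higher (22.2% each way, near the 19.1% and 17.0% of all genes tested), at a median log2 fold change of 0.21. Clk1, a nuclear kinase of SR proteins, averaged 1919 ± 161 normalised reads in GSK and 1053 ± 177 in DMSO libraries (SD, n = 3 each; log2 fold change 0.87, limma adjusted p = 5.24e-05). Prpf4b fell (-0.52), and so did the cytoplasmic kinase gene Srpk1 (-0.37), while Srpk2 rose (0.38). The Srpk1 call was lost without DMSO replicate 1 or 2 or GSK replicate 2, and the Srpk2 call without DMSO replicate 2 or 3 or GSK replicate 2. Among 23 SR-related genes tested, 5 fell (21.7%) and 4 rose (17.4%), shares close to those of all genes tested, with a median of -0.06. Rsrp1, an arginine and serine rich protein gene, averaged 4024 ± 470 in GSK and 1660 ± 167 in DMSO libraries (log2 fold change 1.28, limma adjusted p = 5.45e-07, n = 3 each). Srrm4, a splicing activator of neuronal microexons, rose as well (1.15), and Thrap3 and Scaf11 fell (-0.78 and -0.73). Of the SR-related genes 2 fell without DMSO replicate 2, 3 without DMSO replicate 3 or GSK replicate 2, and 2 rose without DMSO replicate 3 or GSK replicate 2.

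Of 16 genes that encode hnRNP proteins under other names or FET proteins, 5 fell (31.25%) and none rose (median log2 fold change -0.22). Over all genes tested 19.1% were lower and 17.0% higher, and 23.1% and 17.6% among those averaging 100 or more. The genes that fell included Khsrp (-0.82), Pcbp4 (-0.72), Syncrip (-0.67) and Elavl1 (-0.67), whose product HuR stabilises AU-rich transcripts. Without GSK replicate 1, 1 gene of this list was called higher. Tissue-regulated splicing factors included 7 of 19 higher (36.8%) and 5 lower (26.3%, near the share of all genes averaging 100 or more), at a median of 0.17. Elavl3, a neuronal Hu protein gene, averaged 1612 ± 48.9 normalised reads in GSK and 626 ± 166 in DMSO libraries (SD, n = 3 each; log2 fold change 1.40, limma adjusted p = 1.56e-06), and its relative Elavl4 rose by 1.29. Both are also in the neuron marker list given above. Mbnl3, a muscleblind gene, and Qk, which encodes quaking, fell, with log2 fold changes of -1.48 and -0.82. Of 15 genes of nonsense-mediated decay and the exon junction complex 5 fell (33.3%) and 1 rose (6.67%), at a median of -0.28. Eif4a3, the helicase at the core of the exon junction complex, averaged 1364 ± 213 in GSK and 2208 ± 17.5 in DMSO libraries (log2 fold change -0.71, limma adjusted p = 0.000397, n = 3 each), and Smg9 and Smg6 had -0.66 and -0.45. In that list 8 genes fell without GSK replicate 1, 3 without DMSO replicate 3 or GSK replicate 2, and the call of the 1 that rose was lost without GSK replicate 2 or 3, without DMSO replicate 1 or 2, with edgeR, with DESeq2, with equal library totals, with no filter and without variance trend and robust prior. Over all 130 genes tested of these lists 53 fell (40.8%) and 14 rose (10.8%), at a median log2 fold change of -0.31.

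**Figure D5:**
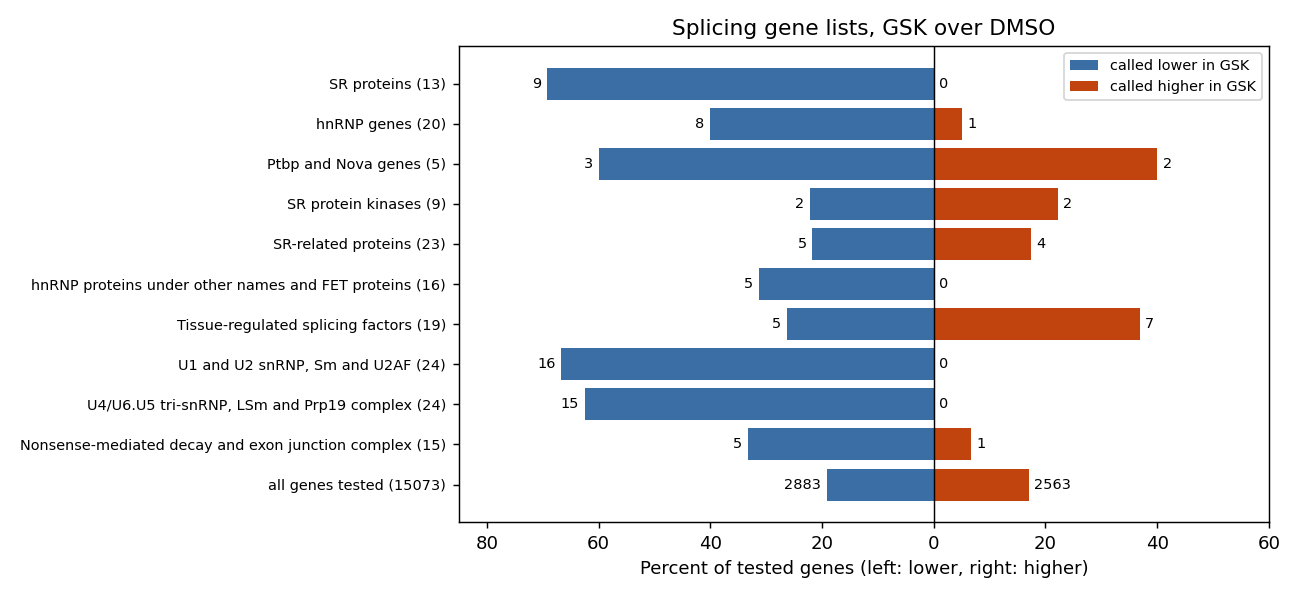
Percent of the tested genes of each splicing list called lower (left of 0) or higher (right of 0) in GSK over DMSO libraries, with the number of genes beside each bar (limma adjusted p below 0.05; the number tested in brackets). SR proteins (9 of 13), the U1 and U2 list (16 of 24) and the tri-snRNP list (15 of 24) have the longest bars to the left, beside 19.1% of all genes tested.

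Many members share sequence with pseudogenes or overlap another gene, which makes their counts less certain. Of the 50-base stretches of their annotated transcripts, 65.4% in Srsf4, 61.9% in Hnrnpf and 46.7% in Hnrnpa1 also occur, read on either strand, in transcripts of other genes. Such matches include overlapping genes on the opposite strand. For Srsf4 the only such gene is Gm12992, whose opposite-strand overlap is given again below. The 23 members with under 10% of shared stretches included 11 that fell and 2 that rose, at a median log2 fold change of -0.31. The 15 with 10% or more included 9 that fell and 1 that rose, at a median of -0.40. Over all genes tested 19.1% were lower and 17.0% higher. Since Smart-seq2 libraries keep no record of strand, overlapping genes on opposite strands cannot be told apart. An opposite-strand gene covers 43.0% of the exon bases of Srsf4 (Gm12992), 31.7% of Nova2 (Gm26821), 29.1% of Hnrnpab (Phykpl), 26.5% of Hnrnpf, 25.3% of Srsf2 and 20.7% of Ptbp1.

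SR genes are known to limit their own output by splicing in a poison exon that leads the transcript to nonsense-mediated decay. GENCODE vM21 annotates a transcript of the decay class for 24 of the 38 members (63.2%) and for 11 of the 13 SR genes (84.6%), beside 28.5% of the 13164 protein coding genes tested that have an entry. The deposited values are per gene, so productive and decaying isoforms were not separated here.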

How the data were processed

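The authors deposited a signal value per gene for 6 libraries, a read count after normalisation. Per the submitters' processing notes the tools were STAR and DESeq and the builds GRCm38 and mm10, without versions or roles. Counter and annotation: not given in the sources used here. Each gene's value was repeated over transcript rows (118098 rows), and 1 row per gene was kept. Positions, exon lengths and transcript classes came from GENCODE vM21 (GRCm38), matched by identifier for 32158 genes.

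The main test was limma 3.58.1 (R 4.3.3) on log2(value + 1), trended and robust, for 15073 genes with a mean of at least 10, with Benjamini-Hochberg adjustment over all of them at 0.05. On simulated data with 200 genes changed, it recovered 78.8% at a log2 fold change of 1 in either direction and 98.9% at 2. Of its 186 calls there 14 were false. The simulation changed 200 of 15073 genes, whereas 36.1% were called in the real data. Its recovery and false calls therefore need not hold for these libraries. The members' log2 fold changes, from -0.76 to 0.84, were smaller than those simulated, so recovery at their size was not measured. The values were whole multiples of 1 read for 100% of entries within 0.01, so reads were recovered. edgeR 4.0.16 on those reads called 5496 genes (36.5%). DESeq2 1.42.0 was a further alternative, beside other pseudocounts, filters, scalings, a replicate block and each library left out. The total without globin, mitochondrial and rRNA-overlapping genes was added after seeing the data.

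Members and lists were chosen with earlier results of these data known. Every member is named. From each other list up to 4 called genes of smallest p were named. Libraries of a group differed beyond sampling noise (chi-square per degree of freedom 4.45 to 14.2).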

Additional observations from a re-analysis of the deposited data

How the results depend on the processing

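Over 18 other settings, 23 of the 38 members kept their call and sign, among them 14 of the 20 that fell, Nova2 of the 3 that rose and 8 of the 15 not called. Of 683 member values under these settings 630 kept direction and side of the threshold, 34 lost their call, 17 gained one and 2 reversed, both of Hnrnpc (log2 fold change -0.012 with equal library totals, and -0.016 to 0.18 with a library left out, the lowest without GSK replicate 3). The cause was not tested. Members called lower numbered 16 to 20 and those called higher 1 to 5 with a library left out. They numbered 20 lower and 5 higher with cyclic loess, 24 lower with equal library totals, and 22 lower with edgeR or DESeq2. A fit with neither variance trend nor robust prior called 14 lower, and an adjusted p below 0.01 also gave 14. Calls over all genes tested moved as well. The share lower, 19.1% in the main fit, was 14.9 to 21.4% with a library left out and 18.6% with cyclic loess. It was 21.7% with equal library totals, 19.9% with edgeR, 18.1% with DESeq2 and 15.8% without trend and robust prior. Genes called higher, 2563 in the main fit, numbered 1748 to 3071 with a library left out and 2726 with cyclic loess. The share of reads in members, -0.28 percentage points as GSK minus DMSO, ran from -0.31 to -0.25 with a library left out. On the other scale of the globin-free total, where the shares are larger, the difference was -0.25. The log2 ratio of Ptbp2 to Ptbp1 differed by 0.16, and by -0.025 (without GSK replicate 1) to 0.33 with a library left out. Genes of the other lists called lower, 53 in all, ran from 44 to 58, and those called higher, 14 in all, from 10 to 19.

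The deviations of same-numbered libraries correlated at -0.02 to 0.05, and those of differently numbered ones at -0.07 to 0.07. With 3 libraries per group, these values cannot decide whether the numbers mark a shared litter or day. With a replicate block 20 members were lower and 3 higher. At these depths Srsf12, Nova1 and Srsf9, with means under 200 normalised reads, had the largest standard errors of the members (0.28, 0.18 and 0.17).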
